A study of Mus musculus with 6 samples.

Results

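The 46 genes described here act in meiosis or in the piRNA pathway of mouse germ cells, and they were taken from a list of names. For each gene, the promoter was the sequence from 1 kb before to 0.5 kb after the annotated transcript start, on the gene's own strand, and the body was the rest of the gene. A cytosine entered only with at least 10 reads in all 6 libraries, and a promoter or body was reported with 3 or more such cytosines. This left 14 promoters and 10 bodies of 17 members, against 8161 promoters and 7167 bodies of 11727 genes in all. Both could be reported for 7 members. A further 22 members with a listed start had too few shared cytosines, 18 of them none, and 7 members (Tdrd6, Tex11, Tex15, Piwil2, Spo11, Meiob and Dnd1) had no listed start.

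The assay was RRBS (reduced representation bisulfite sequencing): MspI cuts the DNA at CCGG, and unmethylated cytosines are converted before the fragments are read. Lines of androgenetic haploid embryonic stem cells (AG-haESCs), whose single chromosome set is paternal, were set against round spermatids, the haploid cells that leave meiosis and served as control. The wild-type (WT) group has 2 lines, at passages 31 and 18 (replicates 1 and 2). The double knockout (DKO) group has 3 lines, at passages 32, 31 and 29 (replicates 1, 2 and 3), labelled as lacking the H19 DMR and the IG-DMR, control elements of imprinted domains. All 6 samples carry the strain label C57BL/6, and the lines were kept on feeder cells with 2i (inhibitors of a pair of kinases, used to hold ES cells undifferentiated). The spermatids are a single testis library, and how they were isolated is not given in the sources used here. Titles of WT replicate 1 and DKO replicate 2 share the line name OG3, and those of WT replicate 2 and DKO replicate 3 share AGH-2. The labels do not tie the lines to separate embryos, so the spread behind any p-value may be technical.

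In meiosis, homologous chromosomes pair along a protein axis, are joined by the synaptonemal complex and exchange DNA after programmed breaks, and cohesin subunits made only in germ cells hold the sister chromatids. The piRNA pathway uses PIWI proteins and short RNAs to silence transposons in male germ cells, with Tudor domain proteins and RNA helicases as partners. Promoters of many such genes are known to be CpG-rich and to be methylated in cells outside the germ line.

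Total read counts over cytosines lay between 197728785 and 255726544 in the lines and reached 293920118 in spermatids. At the 233019 cytosines shared by all 6 libraries the median depth was 364 to 503 reads, and the mean level was 4.12% to 8.08% in the lines and 22.4% in spermatids. As a check of the deletion labels, the stretch 2 to 4 kb before H19 held 22 and 23 reads in the WT lines and 0 in the 3 DKO lines, but also 0 in spermatids. The stretch 10 to 16 kb before Meg3, where the IG-DMR lies, held 196 reads in WT replicate 1 and 62 in DKO replicate 3, 1 in spermatids and 0 in the other 3 lines, so coverage does not settle the labels. The files hold no expression, so cell identity could be read only from methylation of marker genes. All 9 measured housekeeping promoters were below 1% in every library. Of 11 pluripotency genes 3 promoters could be measured, and 0 differed by the size rule given below. Of 10 spermatid genes 2 could be measured, Tssk1, higher in spermatids, and Tnp1, lower. Promoters of the 10 testis somatic markers could not be measured.

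The following stretches upstream of transcript starts, from RefSeq on GRCm38.p6 (the assembly called mm10), show how dense the measured sites are. Capitals mark CpGs with a cytosine measured in all 6 libraries. Slc25a31 at chr3:40708621-40708870 (plus strand), Meioc at chr11:102665555-102665584 (plus strand), Dmrtb1 at chr4:107684287-107684316 (minus strand) and Ddx4 at chr13:112652408-112652437 (minus strand) were chosen because single sites in them were methylated in some lines. Tdrd5 at chr1:156303349-156303378 (minus strand) was chosen as a stretch near 0 in all libraries. All are written 5′ to 3′ on the strand of the gene.
Slc25a31: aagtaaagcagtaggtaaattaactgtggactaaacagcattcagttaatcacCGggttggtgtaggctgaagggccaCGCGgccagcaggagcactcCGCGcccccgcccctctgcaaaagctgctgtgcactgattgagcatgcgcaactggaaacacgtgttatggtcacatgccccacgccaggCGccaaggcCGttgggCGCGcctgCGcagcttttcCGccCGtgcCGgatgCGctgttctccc
Meioc: gtCGCGaggCGCGgggagcaatgtaaCGgc
Dmrtb1: CGgacattcagCGagctgttttgttacaag
Ddx4: CGCGCGcCGCGgcCGctgattggctggCGg
Tdrd5: cgtcccggacctgCGgCGCGcaaCGgcagc
In what follows the values of lines are given in a fixed order, WT replicates 1 then 2 and DKO replicates 1, 2 then 3. In the Meioc stretch, the site 4 bases before the start was at 52.3% and 30.2% (WT), 0%, 11.1% and 0% (DKO). The site 21 bases before the start was at 0% in both WT lines and at 28.6%, 0% and 23.4% (DKO). Both sites were at 0% in spermatids. For the Dmrtb1 stretch the highest values were 58.7% and 32.2% (WT), 0%, 2.62% and 48.9% (DKO) and 0.279% in spermatids. Of the 14 capital CpGs of Slc25a31, 3 were above 10% in WT replicate 1 and 1 in WT replicate 2. The Ddx4 stretch had a single site above 10%, at 11.9% in DKO replicate 1. No site of the Tdrd5 stretch exceeded 0.104% in any library.

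Promoters of these genes were close to unmethylated in spermatids, while several carried low, uneven methylation in the stem cell lines. Of the 14 promoters, 8 had a mean above 1% over the lines (57.1%, against 9.64% of all measured promoters), and 1 was above 1% in spermatids (7.14%, against 5.21%). All 6 libraries were below 1% in 5 of 14 members (35.7%) and in 81.3% of all measured promoters. The median level over the 14 members was 2.54% and 0.0578% (WT), 0.0858%, 0.709% and 0.0253% (DKO), and 0.0296% in spermatids. Over all measured promoters the medians were 0.0182% to 0.0453% in the lines and 0.0260% in spermatids. WT replicate 1, the line with the highest mean over all shared cytosines, was also the highest line at 4 of the 8 member promoters. Over all genes it was the highest at 270 of 787 promoters with a mean above 1% over the lines.

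A size rule was used because spermatids came as 1 library, which gives no spread among spermatids, and no test was run. A gene was past it where the spermatid level lay at least 10 percentage points from the mean of the 5 lines and outside their range. By this rule 2 of 14 member promoters were lower in spermatids, Dmrtb1 and Meioc, against 0.502% of all measured promoters (41 of 8161), and 0 were higher, against 2.3% (188). Spermatids lay below all 5 lines in 4 members (Meioc, Fkbp6, Dmrtb1 and Ddx4), where 7.3% of all promoters did so. They lay above all 5 lines in 0 members, against 14.5%. Without WT replicate 1 the count of lower members was 0, and without DKO replicate 3 it was 1 (Meioc).

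**Figure D1:**
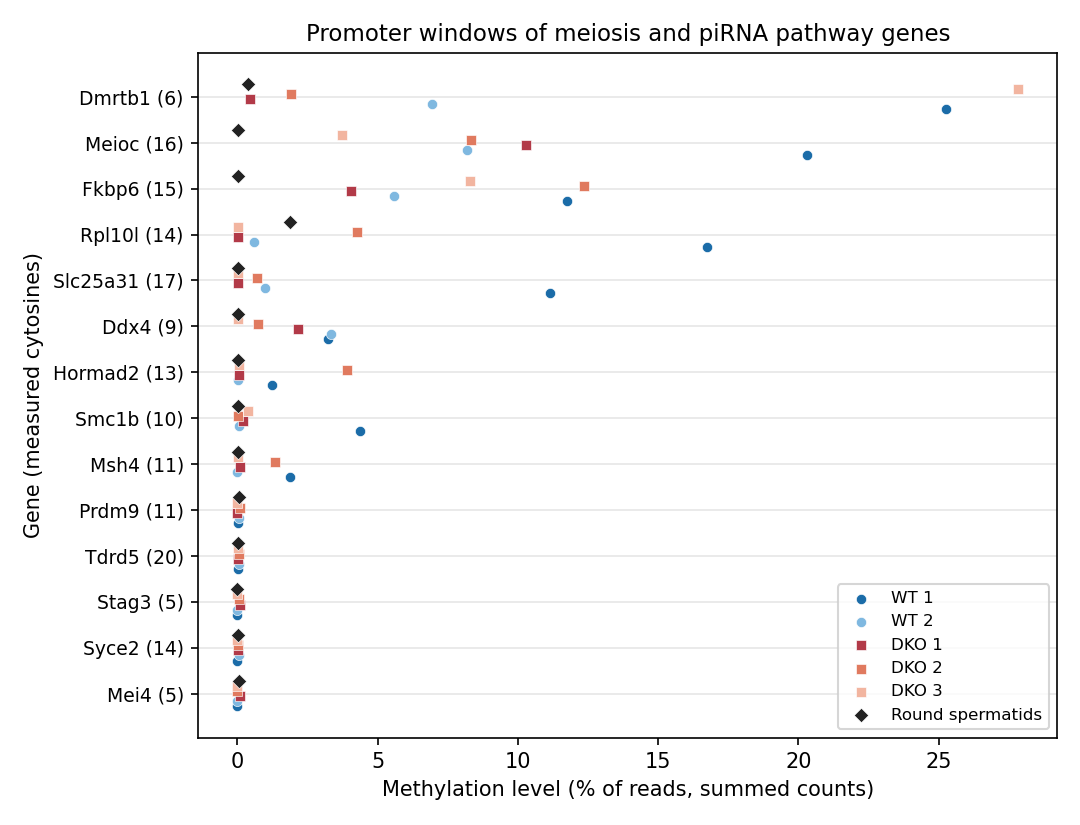
Methylation level of the 14 measured promoters in percent of reads (horizontal axis) for each gene (vertical axis, number of measured cytosines in brackets), with 1 point per library. The spermatid points lie at or near 0 except at Rpl10l (1.88%), while single lines reach 27.8% at Dmrtb1 and 20.3% at Meioc.

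Among regulators of entry into meiosis, Meioc and Dmrtb1 had the widest gaps. Meioc encodes a partner of the helicase YTHDC2 that maintains the meiotic programme. Its promoter on chromosome 11 (102664585 to 102666084) had levels of 20.3% and 8.20% (WT), 10.3%, 8.33% and 3.71% (DKO) and 0.0109% in spermatids, from 16 cytosines and at least 3375 reads a library. Every line stood above the spermatid library, and WT and DKO lines overlapped. The mean of the lines was 10.2% ± 6.16 (SD, n = 5), and the Wilson 95% interval in spermatids ran from 0.00192% to 0.0616%. This interval covers counting error only, since reads were amplified by PCR and 1 read is counted at each cytosine it covers. Without WT replicate 1 the mean of the lines was 7.63% and the gap was -7.62 points, short of the rule.

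Dmrtb1, a DM domain transcription factor gene that controls the switch from mitosis to meiosis, differed more between lines than between the lines and spermatids. Its promoter on chromosome 4 (107683731 to 107685230) was at 25.2% and 6.94% (WT), 0.448%, 1.91% and 27.8% (DKO) and at 0.382% in spermatids, from 6 cytosines and at least 400 reads. The lines averaged 12.5% ± 13.1 (SD, n = 5), and DKO replicate 1 lay beside spermatids. Without WT replicate 1 the gap was -8.91 points and without DKO replicate 3 it was -8.26 points. With the more downstream of its 2 listed starts, the window held 10 cytosines and the gap was -7.57 points. When the spermatid library was paired with 1 line at a time, 9 or 10 cytosines could be used in 3 pairs and the spermatid level was 13.4% to 14.05% there. The lines of these pairs were at 31.96% (WT replicate 1), 1.26% (WT replicate 2) and 10.1% (DKO replicate 3). The lower call for Dmrtb1 therefore rests on the cytosines that all 6 libraries share.

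Of the 3 piRNA pathway genes with a measured promoter, Fkbp6 and Ddx4 carried some methylation in the lines and Tdrd5 almost none. Fkbp6 encodes a co-chaperone that works with the PIWI machinery. Its promoter on chromosome 5 (135349545 to 135351044) was at 11.8% and 5.58% (WT), 4.05%, 12.3% and 8.28% (DKO) and 0.0232% in spermatids, from 15 cytosines and at least 15844 reads. Fkbp6 was thus the member just outside the size rule, with a gap of -8.38 points, although all 5 lines lay above the spermatid library. Ddx4 encodes the germ cell RNA helicase known as VASA. Its promoter on chromosome 13 was at 3.22% and 3.35% (WT), 2.14%, 0.715% and 0.0310% (DKO) and 0.0102% in spermatids, where DKO replicate 3 lay close to spermatids. Tdrd5, a Tudor domain gene, had 20 measured cytosines and stayed between 0.00576% and 0.0541% in all 6 libraries.

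Of the 4 measured promoters of chromosome axis, cohesin and synapsis genes, those of Stag3 and Syce2 were near 0 and those of Hormad2 and Smc1b carried low levels in single lines. Hormad2, an axis protein gene, was at 1.25% and 0.0236% (WT), 0.0390%, 3.92% and 0.0418% (DKO) and 0.0312% in spermatids. Its value in DKO replicate 2 came mostly from 1 cytosine, 42 bases before the start, at 55.9%. Smc1b, a meiotic cohesin gene, was at 4.38% in WT replicate 1 and between 0.0114% and 0.369% in the other 5 libraries, and its window overlaps the neighbouring gene Ribc2 on the opposite strand. The promoters of Stag3, another cohesin subunit gene, and of Syce2, a central element of the synaptonemal complex, did not exceed 0.0838% in any library. The Stag3 window overlaps Gpc2 on the opposite strand.

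Of the 3 recombination genes measured, Msh4 alone exceeded 1% in a line. Prdm9, which encodes the histone methyltransferase that places recombination sites, and Mei4, which is needed for the programmed breaks, stayed at or below 0.0878% in every library. Msh4, a crossover factor gene, was at 1.86% and 0% (WT), 0.107%, 1.35% and 0.0234% (DKO) and 0.0367% in spermatids. Its 11 cytosines lie at -996 to -800 relative to the listed start, so the start itself was not measured.

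A pair of genes active in later spermatogenesis had methylation mainly in WT replicate 1. Slc25a31 encodes the ADP/ATP carrier of testis mitochondria. Its promoter was at 11.2% and 0.999% (WT), 0.0328%, 0.703% and 0.0113% (DKO) and 0.0238% in spermatids, from 17 cytosines. Rpl10l, an intronless relative of the ribosomal protein gene Rpl10 that is used in spermatocytes, was at 16.8% and 0.582% (WT), 0.0234%, 4.25% and 0.0273% (DKO) and 1.88% in spermatids. It was the only member promoter of the 14 above 1% in spermatids, and reads from near-identical copies were not checked for.

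Single cytosines show that promoter methylation in the lines was patchy. Over the 14 promoters 166 cytosines were measured, and 0 were above 10% in spermatids, where 158 were below 1%. At least 1 line was above 10% at 48 of them, exactly 1 line at 26, and all 5 lines at 1. Levels above 10% were found at 34 and 12 cytosines (WT) and at 7, 18 and 10 (DKO). The cytosine above 10% in all 5 lines lies 733 bases before the start of Meioc, at 54.5% and 43.2% (WT), 43.7%, 33.2% and 35.1% (DKO) and 0% in spermatids. A site 11 bases further in, at -722, was at 91.9% in WT replicate 2 and 0% in DKO replicates 1 and 3.

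At several places neighbouring cytosines had almost the same level in 1 library. At Slc25a31, the sites 11, 15 and 23 bases after the start were at 34.1%, 34.2% and 34.0% in WT replicate 1, and at or below 0.0782% elsewhere. At Rpl10l, 6 cytosines from 9 to 54 bases after the start were at 8.73% to 8.90% in spermatids and at 0% in 4 of the lines, and WT replicate 1 was at 36.3% and 15.3% at 2 of them and at or below 0.336% at the other 4. Adjacent sites of a short MspI fragment can be read in the same molecules, and no molecular identifiers were described, so how many molecules stand behind such a level was not tested. The 91.7% of DKO replicate 3 at Dmrtb1, 99 bases after the start, rests on 12 reads.

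**Figure D2:**
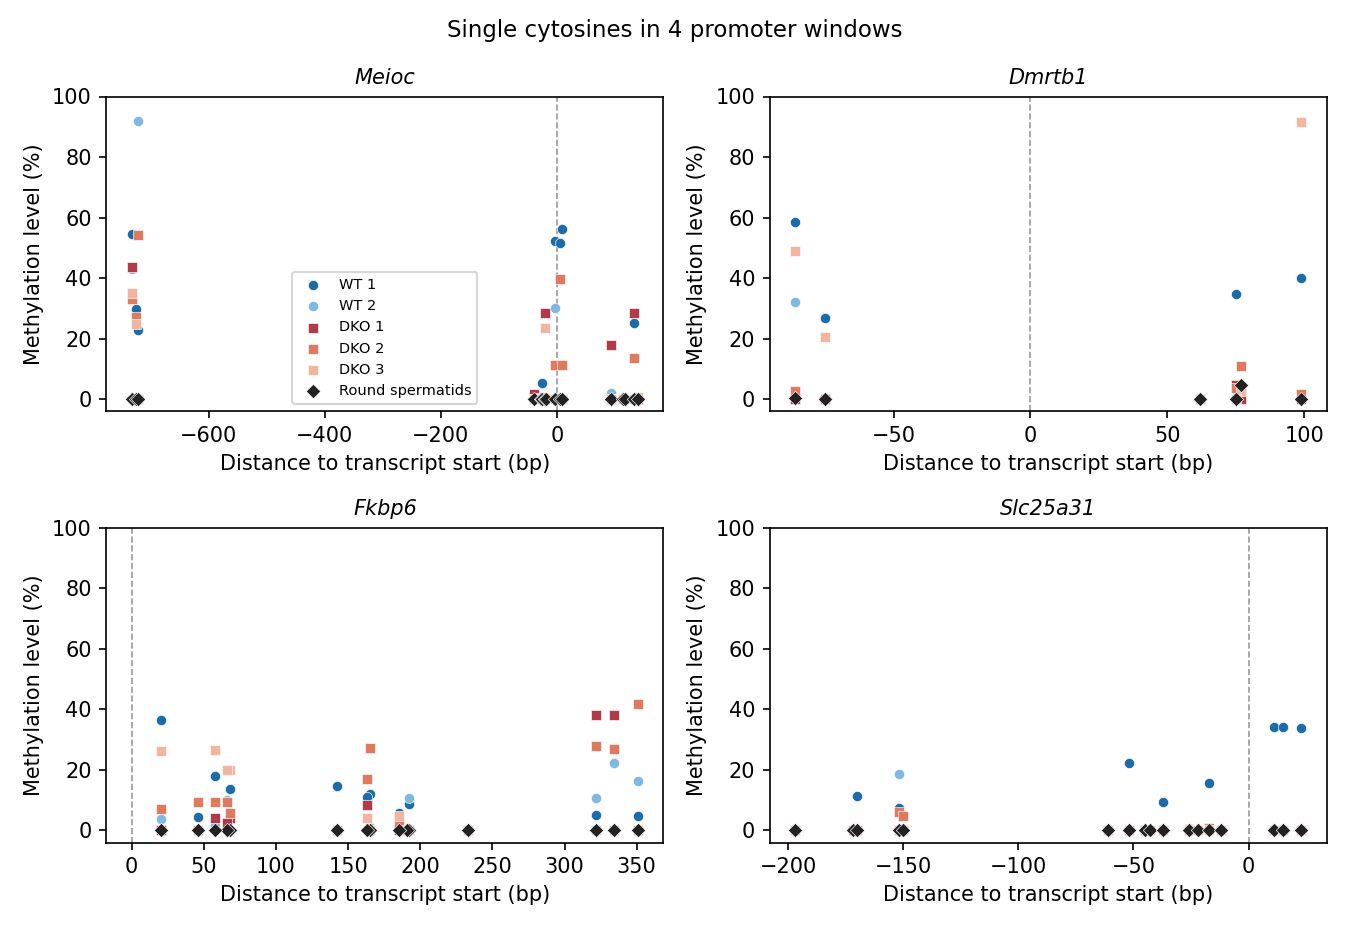
Levels of single cytosines (vertical axis, percent of reads) against distance to the transcript start in bp (horizontal axis, dashed line at the start) in the promoters of Meioc, Dmrtb1, Fkbp6 and Slc25a31, 1 point per library. Spermatid points stay at or below 4.76% at every site, while the lines scatter and only the site 733 bp before Meioc is above 10% in all 5.

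Gene bodies showed the opposite order in 3 of 10 measured members. Mei4, Mei1 and Stag3 were higher in spermatids by the size rule and 0 members were lower, against 45.9% higher (3291 of 7167) and 1.31% lower (94) among all measured bodies. The 3 of 10 members lie below that background share, a difference that rests on few genes and was not tested. Mei4 was lost with at least 20 reads or at least 5 cytosines, and Stag3 with a gap of at least 25 points. Spermatids lay above all lines in 3 members (54.9% of all bodies) and below all lines in 1, Brdt (5.8%). The median over the 10 bodies was 2.05% in spermatids and 13.97% and 4.70% (WT), 0.0449%, 20.5% and 6.92% (DKO) in the lines, while the medians of all bodies were 14.1% in spermatids and 1.83% to 6.70% in the lines.

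Mei4 had the widest gap. Its body on chromosome 9 was at 20.3% and 0% (WT), 0%, 24.1% and 25.2% (DKO) and 97.3% in spermatids (Wilson 95% interval 93.9% to 98.9%), from 3 cytosines between 64460 and 88552 bases after the start and at least 86 reads. The lines split into those near 0 and those above 20%, and all lay far below spermatids. Every line was at 0% at the site at 64460 bases, so the split rests on the sites at 88514 and 88552 bases. Those had 12 and 11 reads in WT replicate 2 and 16 and 15 reads in DKO replicate 1. Mei1, a gene needed for meiotic break formation, was at 23.3% and 15.1% (WT), 20.2%, 36.1% and 20.4% (DKO) and 96.9% in spermatids. Its 9 cytosines lie 39067 to 42387 bases after the start on chromosome 15. In the pairs of spermatids with WT replicate 2, DKO replicate 2 and DKO replicate 3, 16 or 17 cytosines of Mei1 could be used, and the spermatid level was 21.1% to 24.1% against 10.9%, 30.4% and 17.3% in those lines. The level of the Mei1 body in spermatids thus depends on which cytosines are shared.

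Stag3 is a mixed case. The body was at 19.8% and 18.1% (WT), 14.9%, 22.4% and 12.8% (DKO) and 35.9% in spermatids, from 9 cytosines. The annotated span of Stag3 starts before the listed start and overlaps Gpc2 and Gal3st4, and 5 of the 9 cytosines lie in that stretch. The gap was 18.3 points over all 9 cytosines and 42.1 points without that stretch. After the start, the sites at 562 and 605 bases were at 0% in spermatids, from 69 and 54 reads. Those at 16990 and 19667 bases were at 99.7% and 99.8%, from 307 and 557 reads, so the wider gap rests on these far sites.

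Bodies measured close to the start were low in spermatids instead. Sohlh2, a transcription factor gene of spermatogonia, was at 42.6% and 8.16% (WT), 3.46%, 50.4% and 12.7% (DKO) and 5.97% in spermatids, -17.5 points from the mean of the lines but above DKO replicate 1. Of its 7 cytosines, 6 lie 567 to 694 bases after the start and were at 0% in spermatids, and the other, 26010 bases after the start, was at 100%. Brdt, a bromodomain gene of spermatocytes and spermatids, was at 0.116% and 7.93% (WT), 0.0898%, 11.8% and 21.2% (DKO) and 0.0551% in spermatids, below every line and -8.17 points from their mean. Rpl10l was at 33.7% and 1.48% (WT), 4.19%, 18.7% and 0.0166% (DKO) and 2.59% in spermatids. The Dmrtb1 body was at 9.40% in WT replicate 2 and 27.6% in DKO replicate 2, at 0% in the other 3 lines and at 0.0539% in spermatids. Meioc was at 8.13% in WT replicate 1 and at most 1.13% elsewhere, Syce2 at most 2.27% and Msh4 at most 0.0888% in every library. The 3 cytosines counted for the Msh4 body lie at -1164 to -1132, before the listed start, so they do not measure the transcribed part from that start.

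**Figure D3:**
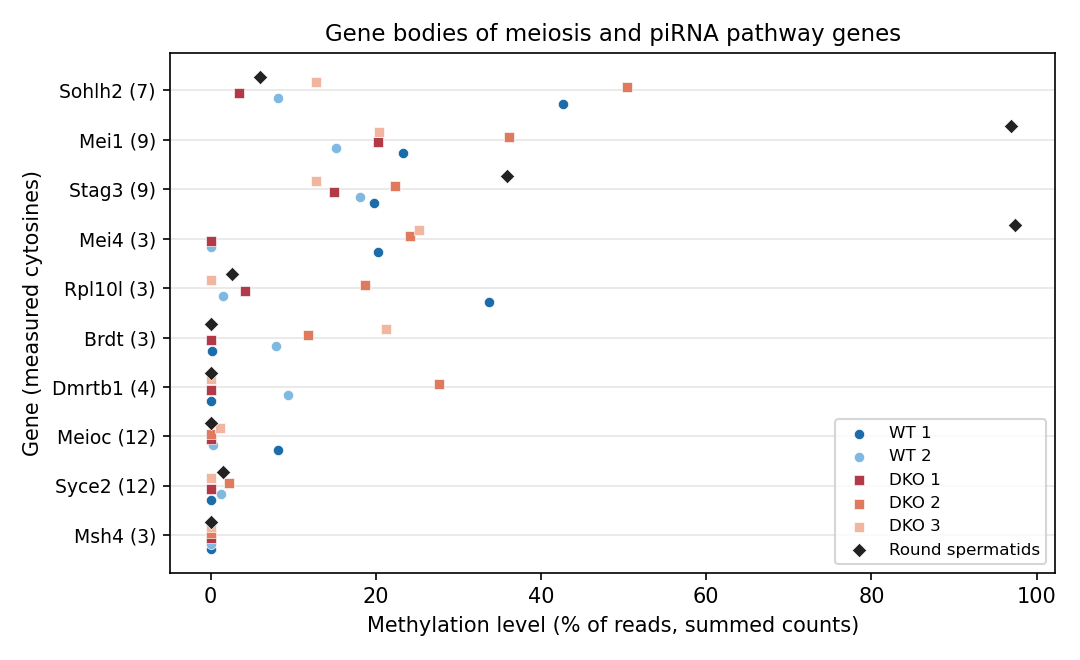
Methylation level of the 10 measured gene bodies in percent of reads (horizontal axis) for each gene (vertical axis, number of measured cytosines in brackets), 1 point per library. Spermatids are at 96.9% and 97.3% for Mei1 and Mei4 and at 35.9% for Stag3, and lie at or below 5.97% for the other 7.

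Cytosines of these genes were grouped by distance from the start, in classes that were added after the data were seen. Cytosines more than 1000 bases before a start, in the Stag3 and Msh4 bodies, were in no class. Among them, the Stag3 sites at -3824 and -4690 were at 100% and 27.2% in spermatids. The other Stag3 sites there were at or below 6.36%, and the Msh4 sites at 0%. In the 4 classes from 1000 bases before to 1999 bases after the start, all 14, 56, 103 and 42 cytosines were below 10% in spermatids. Of the 19 cytosines at 2000 bases or more, 16 were above 90% and 0 below 10%. At 501 to 1000 bases before the start the lines averaged 7.11% ± 3.07 (SD, n = 5) and spermatids 0.0199%. At 1 to 500 bases before they averaged 3.08% ± 1.70 against 0.158%, and at 0 to 499 bases after 4.14% ± 2.15 against 0.575%. At 500 to 1999 bases after the values were 5.40% ± 3.90 and 0.389%, and at 2000 bases or more 23.7% ± 9.17 and 96.0%.

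The same classes over all genes are given as a description. Cytosines above 10% in at least 1 line made up 28.6%, 26.8%, 35.0% and 47.6% of the 4 classes nearer than 2000 bases in the members, and 8.44%, 3.26%, 3.47% and 12.0% in all genes. Means over spermatids in these classes were 2.71%, 1.001%, 0.868% and 5.14% in all genes, each above the value in the members. Beyond 2000 bases spermatids averaged 49.8% over all genes, with 45.4% of cytosines above 90% and 46.0% below 10%. The farthest class holds 19 cytosines from 8 member genes, and the first class 14 from 2 genes, so both are thinly filled.

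**Figure D4:**
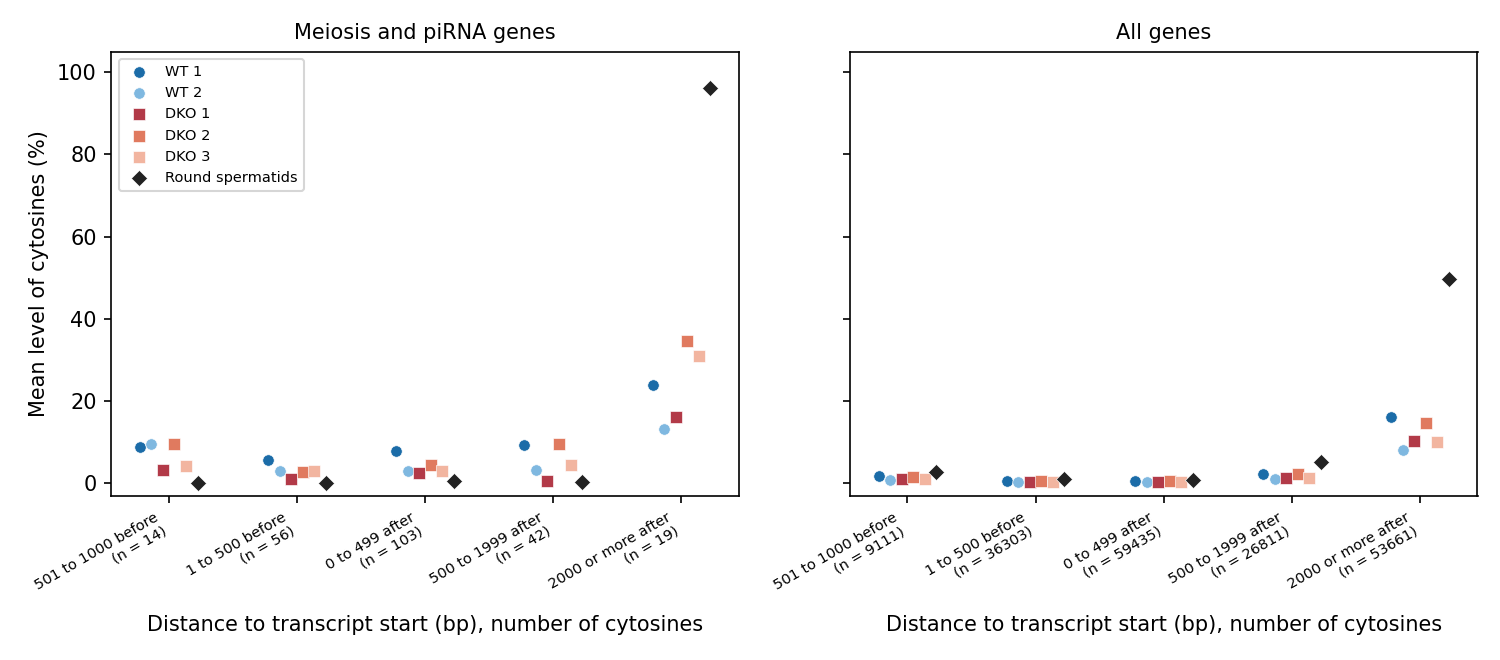
Mean level of cytosines (vertical axis, percent) in 5 classes of distance to the transcript start (horizontal axis, bp, number of cytosines in brackets), for the meiosis and piRNA genes (left) and for all genes (right), 1 point per library. In the members spermatids lie below every line in the 4 nearer classes and at 96.0% in the farthest, where the lines reach 34.5%.

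Pairing spermatids with 1 line at a time, a choice also made after the data were seen, brought in members that lacked cytosines shared by all 6 libraries. Promoters of 20 members could then be compared with at least 1 line and 17 with all 5, and bodies of 15 and 12. Tex101, a germ cell surface protein gene, had 7 to 17 cytosines in its promoter, at 16.3% and 3.02% (WT) and 32.5%, 62.7% and 39.1% (DKO), against 0.143% to 0.207% in spermatids. Sycp3, which encodes a core protein of the chromosome axis, was at 50.8% and 21.96% (WT), 37.1%, 32.8% and 0% (DKO), against 0% to 0.125% in spermatids, from 3 to 6 cytosines. Spermatids thus lay below the other 4 lines at Sycp3. In the pair with DKO replicate 3, 0% of 1243 reads stood against 0.0745% of 1342 spermatid reads, too few to give an order. Hormad1, an axis protein gene, was at 36.2% in WT replicate 1 and between 0.612% and 5.53% in the other lines, with spermatids at or below 0.0463%. These Hormad1 levels come from cytosines that differ between pairs, so the lines cannot be compared with each other by them. At the 2 Hormad1 cytosines shared by all 6 libraries, the lines were at 37.1% and 15.1% (WT), 2.46%, 24.2% and 36.6% (DKO). Spermatids were at 0% there. Sycp2, a further axis gene, was at 2.24% to 3.89% in 4 lines, against 0.0579% to 0.0638% in spermatids. The Sohlh2 promoter, with 3 to 6 cytosines in 4 pairs, was at 9.32% in WT replicate 2 and at 0% in the 3 DKO lines, against 0.0656% to 0.0877% in spermatids. Spermatids were thus nominally the higher of the pair in 3 of 4 lines. The DKO lines had 463 to 675 reads there, too few to tell such levels from 0%.

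Of the 4 piRNA genes whose bodies were gained by the same pairing, Tdrd9, Tdrd1 and Mov10l1 were at 99.6% or above in spermatids. The Fkbp6 body was lower, at 70.8% in spermatids against 5.74% and 31.9% (WT), from 3 cytosines shared with the WT lines alone. Tdrd9, a helicase gene that acts with PIWI proteins, was at 0.792% and 5.70% (WT), 28.9%, 22.3% and 17.4% (DKO) and 100% in spermatids, from 3 to 8 cytosines. Tdrd1, a scaffold of piRNA granules, was at 91.3% and 15.7% (WT), 34.8%, 42.6% and 30.4% (DKO) and 100% in spermatids. Mov10l1, the helicase gene that starts piRNA processing, was at 0.588% to 36.3% in 4 lines and 99.6% to 100% in spermatids. Msh5, the partner of Msh4, was at 0%, 16.9% and 0.437% (DKO) and 69.9% in spermatids. At Mei1, 4 promoter cytosines were shared with DKO replicate 2 alone, at 0% there and 99.96% in spermatids, which is the reverse of the promoters above and rests on 100 reads in that line. The annotated span of Mei1 begins at 82070074, before the listed start at 82082476, so this window lies inside the gene span. For the size rule with this pairing, the mean of the 5 differences was used, in parts compared with all 5 lines. By it, 2 of 17 promoters were lower (Tex101 and Meioc, not Dmrtb1), against 0.541% of all promoters so compared (46 of 8507). The count of higher promoters was 0, against 2.19%. Mean differences were -30.6 points for Tex101 and -10.2 points for Meioc, and single lines lay nearer to spermatids than 10 points. Of 12 bodies 4 were higher (Mei4, Stag3, Tdrd9 and Tdrd1, not Mei1), against 46.1% of all bodies (3467 of 7516), and 0 were lower, against 1.16%. The share of higher member bodies was below that of all bodies, a difference that rests on few genes and was not tested. Mei4 and Stag3 are also in the earlier count of higher bodies, which comes from the same libraries.

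**Figure D5:**
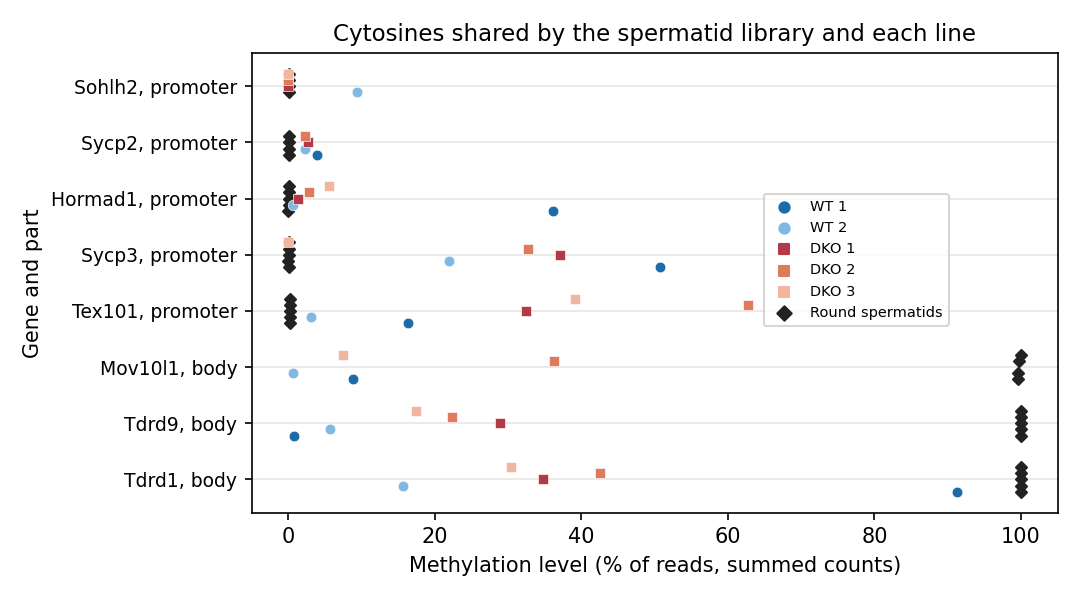
Methylation level in percent of reads (horizontal axis) of 8 gene parts measured line by line (vertical axis, gene and part), with each line and the spermatid library at the cytosines the pair shares. Spermatids lie near 0 in the 5 promoters and at 99.6% or above in the 3 bodies, while the lines range from 0% to 91.3%.

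Parts with 1 or 2 shared cytosines are given as values only. The Brdt promoter was at 22.9%, 20.9% and 21.6% in WT replicate 2 and DKO replicates 2 and 3 and at 0% in the other lines and in spermatids. Single cytosines in the bodies of Fkbp6, Tdrd5 and Prdm9 were at 99.8%, 100% and 100% in spermatids and at most 54.2%, 61.0% and 26.2% in a line, and the Tdrd5 site had 10 reads in spermatids. For members without a listed start, cytosines of the gene span with 1 kb on each side were summed without splitting promoter and body. Tdrd6 was at 6.95% in spermatids against 0.333% to 3.64% in the lines, and Piwil2, a PIWI protein gene, at 6.81% against 0.0161% to 2.16%. Spo11, the gene of the enzyme that makes the meiotic breaks, was at 38.0% against 6.84% to 35.3%, from 4 cytosines. Meiob was at 0% in spermatids and did not exceed 0.0381% in any line, Tex11 and Tex15 had 1 cytosine each, and Dnd1 had 0.

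Other genes of these pathways came from lists chosen with the same earlier results known. Among all measured promoters, 0.502% were lower in spermatids by the size rule (41 of 8161) and 2.3% were higher (188). Of 8 measured promoters among 20 other piRNA genes, 1 was lower in spermatids (Asz1), 0 were higher and 4 were below 1% in all libraries. Of 13 measured promoters among 39 other meiosis genes, 0 were past the rule and 10 were below 1% in all libraries. Stra8, which encodes a switch into meiosis and is named after its values were seen, was at 85.5% in WT replicate 1, 0% in WT replicate 2 and DKO replicate 1, 5.92% and 22.1% in DKO replicates 2 and 3 and 0% in spermatids. Among 16 other germ cell regulators 3 promoters were measured and 2 were lower (Dazl and Taf7l). Bodies were higher in spermatids in 3 of 5 piRNA genes (Parn, Asz1 and Kif17), 3 of 7 meiosis genes (Tex14, Mnd1 and Hsf2bp) and 1 of 4 regulators (Kit). By the same rule 45.9% of all measured bodies were higher (3291 of 7167).

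Markers of other cells that these samples could hold moved in the same direction in part. Of 3 measured promoters among 10 feeder fibroblast genes, 1 was lower in spermatids, Twist2, against 0.502% of all measured promoters. It was at 10.9% ± 3.04 (SD, n = 5) in the lines and 0% in spermatids, and the other 2 were below 1% in every library. Of 3 measured feeder gene bodies 1 was higher in spermatids, Twist2, at 6.22% in the lines against 54.3%. Pdgfra was at 1.81% against 1.96% and Prrx1 at 1.56% against 0.0538%. Of the testis somatic genes only the body of Acta2 was measured, at 18.7% ± 3.37 (SD, n = 5) against 99.6%. Among all measured bodies 45.9% were higher in spermatids. The part of feeder cells or testis somatic cells in the values above was not tested.

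Promoter sequence was compared over the 300 bases from 250 before to 50 after the listed start, on both strands. The E-box CACGTG, a palindrome bound by MYC and MAX family factors among others, was present in 15 of 39 members (38.5%), and in 7.30% of 26794 genes. Among promoters with measured methylation it was present in 4 of 14 members (28.6%) and in 10.8% of genes. TCCCGC, a core of E2F6 sites, was present in 17 of 39 members (43.6%), and in 20.2% of all genes, and among measured promoters in 9 of 14 members (64.3%) and in 40.8% of genes. The Slc25a31 sequence above holds CACGTG once, between its measured sites. Across the members 22 CACGTG sites were found, and 0 of them contained a cytosine measured in all 6 libraries, so methylation of these sites was not measured here. The MspI site CCGG was present in 12 of 14 measured and 15 of 25 unmeasured member promoters with a listed start. A match is a description of letters and not a bound site.

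No member was called between DKO and WT lines. The quasi-likelihood test of edgeR on methylated and unmethylated counts called 0 of 14 member promoters and 0 of 10 member bodies at a Benjamini-Hochberg adjusted p under 0.05, against 0 of 7759 tested promoters and 0 of 7037 tested bodies (0.0% in each). At an unadjusted p under 0.05 there were 203 promoters (2.62%), 1 of them a member, and 148 bodies (2.1%), 0 of them members. The member with the lowest p was the Slc25a31 promoter, with a mean of 6.08% in WT and 0.249% in DKO lines and an edgeR adjusted p = 0.968 (unadjusted p = 0.0163), and the WT mean rests on replicate 1. limma on logit levels also called 0 members, with 1 member promoter at an unadjusted p under 0.05. With lines that share a name as a replicate block, edgeR called 17 promoters and 0 bodies over all genes, 0 of them members. Meioc had means of 14.2% and 7.45% and Dmrtb1 16.1% and 10.1% in WT and DKO lines, with overlapping lines and an edgeR adjusted p = 0.968 for both. The order of the Dmrtb1 means turned without WT replicate 1, to 6.94% and 10.1%, and with the more downstream start, to 5.94% and 8.95%. With 2 against 3 lines an exact permutation test of a single gene cannot go below p = 0.1, so a miss of the threshold does not show that the groups are alike.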

How the data were processed

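The 6 RRBS libraries (5 AG-haESC lines, 1 of round spermatids) were analysed together. Per the submitters' processing notes, Bismark 0.12.2 and the build mm10 were used, while the sources used here do not give trimming or duplicate removal. The deposited files give, per cytosine, a count of methylated and a count of unmethylated reads and their ratio as a fraction. In all 6 files this deposited fraction equalled the ratio of the counts within 1e-09. Strand and context stand in no column. All 34196 shared positions inside RefSeq promoter sequences were cytosines of CpGs, and the 2 strands of a CpG count as 2 positions. No pair of libraries was a copy (at most 0.254% of shared cytosines had identical counts).

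Transcript starts and strands came from the RefSeq promoter table (GRCm38.p6), using the most upstream listed start inside the gene span. Positions were not assigned to exons, introns or UTRs. Windows before H19 and Meg3 were placed with strands known from general knowledge. Levels are methylated over all reads, summed over positions with at least 10 reads in all 6 libraries. Spermatids were described by the size rule of 10 points. DKO and WT lines were compared with edgeR 4.0.16 in R 4.3.3 (a term per library, a group by methylation term, common dispersion, two-sided, Benjamini-Hochberg adjustment over all genes) and limma 3.58.1 (0.5 added to both counts), tested on simulated data. Of 39 other meiosis genes, 34 were in the gene table. Members were named by their level, with values in every library for those past the size rule and for the 6 with the widest range of the lines. Members, lists and rules were chosen with earlier results of these data known. Alternatives varied the read minimum, number of positions, window, averaging, start, size rule, dispersion, blocks and lines.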

Additional observations from a re-analysis of the deposited data

Results flagged for a closer look

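Of 13 promoters or bodies of members whose lines ranged over at least 5 points, 3 had a single line far from the other 4 by Dixon's criterion, and each time it was WT replicate 1. At the Slc25a31 promoter WT replicate 1 was at 11.16% and the gap to the next line took 0.911 of the range. At the Rpl10l promoter it was at 16.76% with a gap of 0.747 of the range, and in the Meioc body at 8.133% with 0.861. The critical value for 5 samples is 0.71, and chance alone passes it in about 1 of 20 groups. WT replicate 1 also had the highest mean level over all shared cytosines (8.08%). Its passage is 31, as for DKO replicate 2. The part of these in the values was not tested.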

How the results depend on the processing

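The 2 member promoters lower in spermatids became 1 with at least 20 reads per cytosine (Dmrtb1), with a promoter from 0.5 kb before the start (Dmrtb1), with the mean of cytosine levels (Meioc) and with the most downstream listed start (Meioc, a choice added after the data were seen), 0 with a gap of at least 25 points, and 3 with at least 5 points (Fkbp6 added). Leaving out 1 line at a time gave 0 to 2, with 0 without WT replicate 1. The 3 higher bodies became 5 with at least 5 reads (Msh5 and Tdrd9 added) and 2 with at least 20 reads or at least 5 cytosines (Mei4 lost) and with a gap of at least 25 points (Stag3 lost). The 0 lower bodies became 1 with a gap of at least 5 points (Brdt) and 0 to 2 when lines were left out (Brdt without WT replicate 1, Brdt and Sohlh2 without DKO replicate 1). For counts and medians, 112 alternatives (those with 2 higher bodies or 3 lower promoters among them) stayed within 1.5 times or 1 SD of the main value, as did 165 for single members. A further 11 alternatives for counts and medians moved beyond this. For single members 2 did, both at the Stag3 body. Its gap of 18.3 points was 22.61 with the mean of cytosine levels and 42.13 with cytosines after the start alone. Of 326 alternative gaps of members, 11 changed sign, 0 of them past the size rule, such as that of the Rpl10l promoter from -2.45 to 0.655 points without WT replicate 1 and that of the Syce2 body from 0.812 to -1.21 points with the most downstream start. Of 348 alternative differences between DKO and WT means, all uncalled, 28 changed sign, over 16 promoters and bodies.

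With lines of the same name as a replicate block, edgeR called 0 member promoters and 0 member bodies, and 17 promoters and 0 bodies over all genes. Tagwise dispersion called 17 promoters and 13 bodies over all genes and 0 members. The 0.5 kb window called 1 promoter over all genes, and limma 0, with 341 promoters and 213 bodies at an unadjusted p under 0.05. None of the alternatives run called a member. Only 233019 of 2091599 cytosines were shared, so most members could not be measured, and the single spermatid library gives no spread.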
